A study of Saccharomyces cerevisiae S288C with 18 samples.

Results

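The RNAs that copurified with Pab1, the poly(A) binding protein of Saccharomyces cerevisiae, were compared with the RNA of the total extract. The comparison used 6 of the 18 libraries of the series, the 3 labelled as Pab1 purifications and the 3 labelled as input, chosen by their labels and not by any measured value. Pab1-TAP cells carried a TAP tag at the C-terminus of Pab1 (PAB1-TAP::HIS3MX6, a strain of the tagged collection in the BY4741 background). The protein was collected from a 4 L culture on IgG magnetic beads in a single step. The input was an aliquot of total extract taken before purification, and the sources used here do not give its strain. PAB1 reads given below show the native 3′ end in input, so the tagged strain was not its only source. Strain and purification therefore cannot be told apart in fold changes over input. Cells of all groups grew exponentially in YPD at 30 °C to an optical density of 0.6, without further treatment. A control purification with 3 libraries was done in the same way with BY4741 cells, which have no tagged protein, and is given beside the Pab1-TAP values because it measures what IgG beads recover without a bait. The study as a whole also purified Upf1, Rpl16a and Lsm1, whose libraries served here to estimate the spread of each feature.

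Pab1 coats the poly(A) tail of mRNAs. It contacts the cap-binding complex through eIF4G, which brings both ends of an mRNA together in what is called the closed loop, and it recruits translation release factor and the Pan2-Pan3 deadenylase. Shortening of the tail releases Pab1 and precedes decapping of many yeast mRNAs. RNAs that carry no tail, such as mature rRNA, tRNA, snoRNA and the RNA polymerase III transcript SCR1, offer no such binding site.

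Values are read counts per feature, where a feature is a reading frame (ORF), an exon, an intron, an untranslated region or a non-coding RNA. The Pab1-TAP libraries held 8437776, 16381719 and 4769639 counted reads, against 6173454, 13991212 and 2790148 in input and 4112276 to 5857931 in the BY4741 control. Levels are given as counts per 1000000 reads (CPM) after TMM scaling, which assumes that most features do not differ. TMM factors ran from 1.17 to 1.88 in Pab1-TAP and from 0.352 to 0.522 in input. With scaling by the total count instead, the median log2 fold change of all features was 1.92 in place of 0.23, a shift of 1.69. Each difference given here is measured from the middle of all features and says nothing of how much RNA was recovered. Replicate 3 stood apart in both groups. Features of the ribosomal DNA took 0.0691, 0.0856 and 13.4% of the reads in Pab1-TAP replicates 1, 2 and 3, against 0.537, 0.666 and 41.3% in input. Counts of gene lists and RNA classes over input are therefore also given without replicate 3 of every group where that moves them by over 1.5 times.

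Across all features, 1244 of 12582 were higher in Pab1-TAP than in input and 993 were lower (edgeR quasi-likelihood test, Benjamini-Hochberg adjusted p under 0.05, n = 3 libraries each). These are backgrounds of 9.89% and 7.89% against which the members of a class are read. Among reading frames and exons alone, 533 of 5928 were higher (8.99%) and 751 lower (12.7%). Fold changes are log2 of Pab1-TAP over input from that fit, with the standard error after ±. With the replicate number as a block the counts were 2260 higher and 1804 lower, and they were 1759 and 1755 without replicate 3 of every group. They were 473 and 584 without input replicate 1, and 514 and 535 without input replicate 2. They fell to 51 and 81 without replicate 1 of every group, and leaving out replicate 2 of every group left edgeR 0 and 0 calls (1990 features had an unadjusted p under 0.05), so every call over input given in the text is lost in that last fit. DESeq2, run on all 18 libraries only, called 1516 and 1257. With total-count scaling edgeR called 7854 features higher and 48 lower, so that most decreases given here are lost under it. Reading frames counted as higher numbered 913 without replicate 3 of every group, against 517 with all libraries.

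The PAB1 gene itself was measured first, since it checks the labels. PAB1 (YER165W) lies on chromosome V, with its reading frame at 510373 to 512106 on the plus strand of R64. In the tagged strain the TAP::HIS3MX6 cassette follows the last codon, so the native 3′ untranslated region no longer follows the reading frame. That region held 0, 0 and 0 reads in the Pab1-TAP libraries, against 120, 205 and 6 in input and 105, 71 and 100 in the BY4741 control. It was at 0 in the 3 Pab1-TAP libraries only, out of all 18. The input RNA therefore came at least in part from cells with the native PAB1 3′ end, and not from the Pab1-TAP strain alone. Against the limit of 3 reads over the 3 Pab1-TAP libraries, the region was at least 449.7-fold lower than in input and at least 247-fold lower than in the BY4741 control.

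The reading frame of PAB1 was still detected, at 374, 298 and 135 CPM in the Pab1-TAP libraries, against 1876, 2181 and 657 CPM in input and 1199, 673 and 677 CPM in the BY4741 control. All 3 Pab1-TAP values lay below the 6 others (log2 fold change over input −2.55 ± 0.52, adjusted p = 0.0034 by edgeR). The 5′ untranslated region had 2.53, 2.69 and 2.51 CPM in the Pab1-TAP libraries, against 18.9, 15.1 and 6.11 CPM in input and 8.41, 7.95 and 5.29 CPM in the BY4741 control, and again no Pab1-TAP value reached another group (−2.42 ± 0.49, adjusted p = 0.0032 by edgeR). Against the BY4741 control the reading frame was lower as well, at −1.66 ± 0.50 (adjusted p = 0.031) on the log2 scale by edgeR. The purification of PAB1 mRNA and a difference in its level between the tagged strain and the strain of the input cannot be told apart here. The region before the PAB1 start codon is shown because it is A-rich and is known as the site where Pab1 binds its own mRNA. The 30 bases at chrV:510320-510349 (RefSeq R64, plus strand) hold the longest run of A before the start codon, 11 bases in capitals, which ends 33 bases before the ATG:
PAB1: taaaaactcAAAAAAAAAAAtccaaaaaaa

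**Figure D1:**
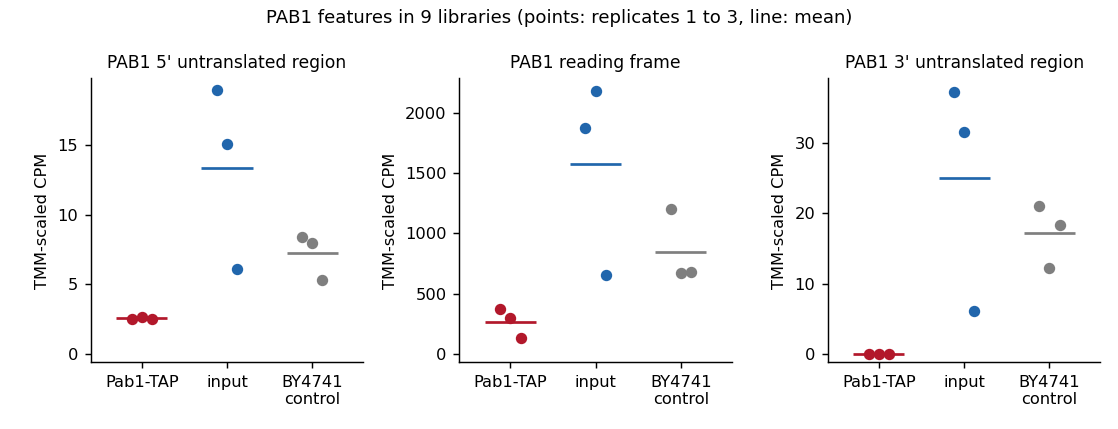
TMM-scaled CPM (linear axes) of the 5′ untranslated region, reading frame and 3′ untranslated region of PAB1 in the Pab1-TAP, input and BY4741 control libraries, with a point for each of 3 replicates and a line at the mean. The 3′ region is at 0 in all 3 Pab1-TAP libraries, and the other features are lowest there.

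Among the genes of the other baits NAM7, which encodes Upf1, had 126, 109.9 and 63.7 CPM in the Pab1-TAP libraries, against 233, 185 and 147 CPM in input and 314, 242 and 174 CPM in the BY4741 control over its reading frame (log2 fold change over input −0.92 ± 0.36, adjusted p = 0.084 by edgeR). RPL16A exons stood at −1.64 ± 0.72 (adjusted p = 0.12) and the LSM1 frame at 1.08 ± 0.45 (adjusted p = 0.1), and neither passed the test by edgeR. With the replicate number as a block all 3 passed by edgeR (adjusted p = 0.021 for NAM7, 0.0058 for RPL16A and 0.027 for LSM1). The 3′ untranslated region of LSM1 passed without the block, at 1.83 ± 0.50 (adjusted p = 0.018), but not without Pab1-TAP replicate 2, input replicate 1 or input replicate 2.

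The partners of Pab1 in the closed loop moved in opposite directions. The mRNAs of both eIF4G isoforms, the scaffold that binds Pab1, were among the largest increases of all reading frames. TIF4631, the gene of the major isoform (chromosome VII, 824059 to 826917, plus strand), had 2219.6, 2666 and 11162 CPM in the Pab1-TAP libraries, against 331, 431 and 286 CPM in input and 662, 606 and 471 CPM in the BY4741 control. Replicate 3 was the highest Pab1-TAP value, and the lowest Pab1-TAP value was over 3 times the highest of the other 6. The test gave a log2 fold change over input 3.94 ± 0.55, adjusted p = 0.00043 by edgeR. Its 3′ untranslated region rose to the same extent, at 3.92 ± 0.60 (adjusted p = 0.00062) by edgeR. TIF4632, the paralog, had 105, 144 and 643 CPM in the Pab1-TAP libraries, against 11.2, 17.99 and 40.7 CPM in input and 153, 139 and 142 CPM in the BY4741 control. Its Pab1-TAP values exceeded all input values (log2 fold change over input 3.74 ± 0.62, adjusted p = 0.001 by edgeR) but overlapped the control purification. Against the BY4741 control TIF4631 was higher by 3.21 ± 0.53 (adjusted p = 0.0014), whereas TIF4632 was at 1.04 ± 0.55 (adjusted p = 0.21) by edgeR and did not pass.

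Other closed-loop genes fell relative to input, of which SUP45 turned to 0.23 with total-count scaling. TIF1 and TIF2 encode the same eIF4A protein from near-identical copies, so reads between them are uncertain. TIF1 had 653, 899 and 576 CPM in the Pab1-TAP libraries, against 4550.3, 5593 and 2147 CPM in input and 1228, 1369 and 1438 CPM in the BY4741 control, with no overlap between Pab1-TAP and input (log2 fold change over input −2.53 ± 0.44, adjusted p = 0.0012 by edgeR). TIF2 stood at −2.44 ± 0.44 (adjusted p = 0.0017). CAF20, whose product competes with eIF4G for the cap-binding protein, was at −1.67 ± 0.35 (adjusted p = 0.0042), and SUP45, the release factor eRF1, at −1.46 ± 0.33 (adjusted p = 0.0065) by edgeR. CDC33, the cap-binding protein eIF4E, was at −0.95 ± 0.36 (adjusted p = 0.075) and did not pass by edgeR, except under the replicate block (adjusted p = 0.011). PBP1, named for binding Pab1, did not pass either (−0.62 ± 0.30, adjusted p = 0.15 by edgeR). PBP4 was the remaining increase at 1.56 ± 0.31 (adjusted p = 0.0028). In all, 3 of 14 genes of this list were higher and 6 lower by edgeR (21.4% and 42.9%, beside 8.99% and 12.7% over reading frames and exons). The median was −0.82 beside 0.23 over all features. PBP1, PBP4, CAF20, SUP45 and CDC33 were picked out after their values had been seen. With total-count scaling the medians of this list and of all features were 0.90 and 1.92.

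Outside the closed loop, the 12 largest increases among reading frames and exons gathered genes of varied function. The 3 first belong to the mating-type cassettes. HMLALPHA2 and HMRA2 had identical counts, and they and MATALPHA2 share sequence, so their reads cannot be assigned to one copy. The BY4741 background of the tagged strain is of mating type a (MATa), so the feature names do not tell which mRNA was recovered. The MATALPHA2 feature, named for the α2 repressor, had 73.9, 67.8 and 91.4 CPM in the Pab1-TAP libraries, against 5.58, 4.92 and 4.07 CPM in input and 20.6, 11.2 and 15.3 CPM in the BY4741 control, with a log2 fold change over input 3.96 ± 0.41, adjusted p = 3.6e-05 by edgeR. These 3 features were higher in every Pab1-TAP library than in any of the 6 input and control libraries. NHP6B, a high mobility group protein of chromatin, had 102, 113 and 426 CPM in the Pab1-TAP libraries, against 25.8, 16.1 and 22.4 CPM in input and 13.6, 15.03 and 26.3 CPM in the BY4741 control (log2 fold change over input 3.33 ± 0.58, adjusted p = 0.0012 by edgeR). It was also higher than the BY4741 control, by 3.54 ± 0.57 (adjusted p = 0.0013) by edgeR, and no library of the other groups came near the lowest Pab1-TAP value.

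MRPS16, a protein of the small mitochondrial ribosomal subunit, had 45.3, 45.2 and 46.0 CPM in the Pab1-TAP libraries, against 4.96, 7.22 and 3.05 CPM in input and 16.6, 23.0 and 23.4 CPM in the BY4741 control. The Pab1-TAP libraries were nearly equal and all above the rest (log2 fold change over input 3.06 ± 0.36, adjusted p = 9.6e-05 by edgeR). EAF6, a subunit of the NuA4 and NuA3 histone acetyltransferases, was at 2.85 ± 0.68 (adjusted p = 0.0084) and GIM4, a subunit of the prefoldin chaperone, at 2.80 ± 0.69 (adjusted p = 0.01). WIP1, a kinetochore protein, stood at 2.91 ± 0.72 (adjusted p = 0.011) and CNL1, a subunit of the BLOC-1 complex, at 2.76 ± 0.79 (adjusted p = 0.022) by edgeR. EGO4, a gene named after the EGO complex of the vacuole, had 13.8, 28.6 and 249 CPM in the Pab1-TAP libraries, against 5.58, 1.23 and 19.3 CPM in input and 9.21, 22.1 and 106 CPM in the BY4741 control, so the groups overlapped although it passed (3.76 ± 1.21, adjusted p = 0.038 by edgeR). EGO4 and CNL1 no longer passed without Pab1-TAP replicate 3, input replicate 1 or input replicate 2, and GIM4 and WIP1 did not without either of these input libraries. Against the BY4741 control 9 of the 12 were higher as well, and EGO4, TIF4632 and GIM4 did not pass.

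The 12 largest decreases were led by mRNAs of metabolism. PDC1, the major pyruvate decarboxylase of alcoholic fermentation, had 3151, 4679 and 2496 CPM in the Pab1-TAP libraries, against 53251, 56636 and 13903 CPM in input and 10095, 8675 and 10058 CPM in the BY4741 control. All Pab1-TAP values were below all others (log2 fold change over input −3.58 ± 0.67, adjusted p = 0.002 by edgeR). Its paralog PDC5 had 20.7, 20.9 and 16.7 CPM in the Pab1-TAP libraries, against 287, 388 and 127 CPM in input and 72.7, 48.0 and 63.9 CPM in the BY4741 control (log2 fold change over input −3.79 ± 0.38, adjusted p = 3.4e-05 by edgeR). MET6, methionine synthase, had 71.7, 98.2 and 75.1 CPM in the Pab1-TAP libraries, against 1299.7, 1465 and 410.1 CPM in input and 403, 374 and 639 CPM in the BY4741 control, again without overlap (log2 fold change over input −3.70 ± 0.54, adjusted p = 0.0005 by edgeR). The sodium-phosphate symporter gene PHO89 was at −3.59 ± 0.49 (adjusted p = 0.00032) and that of the vacuolar carboxypeptidase CPS1 at −3.15 ± 0.55 (adjusted p = 0.0012) by edgeR. Both were scarce in Pab1-TAP, at 8.29, 2.15 and 2.87 CPM and 21.2, 25.1 and 12.4 CPM. ALD6, cytosolic acetaldehyde dehydrogenase, was at −3.06 ± 0.52 (adjusted p = 0.0012) by edgeR. TIR1, a cell wall mannoprotein, was the one decrease whose groups overlapped, at 14.9, 27.8 and 3.95 CPM in the Pab1-TAP libraries, against 130, 275 and 16.3 CPM in input and 38.4, 6.22 and 13.1 CPM in the BY4741 control (−3.17 ± 0.89, adjusted p = 0.021 by edgeR), and it did not pass without Pab1-TAP replicate 1, Pab1-TAP replicate 3 or input replicate 2. Against the BY4741 control PDC5, MET6, PHO89, CPS1 and ALD6 were lower as well by edgeR. PDC1 (−1.48 ± 0.62, adjusted p = 0.11), TDH3, CDC19, ENO2, TEF2, TIR1 and HAC1 did not pass that edgeR test.

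HAC1 encodes an activator of genes that respond to unfolded proteins, and its mRNA is held untranslated until an enzyme of the endoplasmic reticulum removes its intron in the cytoplasm. Its exons had 318, 555 and 657 CPM in the Pab1-TAP libraries, against 5113, 4593 and 3228 CPM in input and 838, 607 and 769.8 CPM in the BY4741 control, with no overlap between Pab1-TAP and input (log2 fold change over input −3.08 ± 0.48, adjusted p = 0.00066 by edgeR). The intron fell along with them, at −2.99 ± 0.50 (adjusted p = 0.001), and the 3′ untranslated region at −2.94 ± 0.70 (adjusted p = 0.0083) by edgeR. Intron reads per 100 exon reads were 20.9, 17.5 and 26.9 in Pab1-TAP, against 23.4, 20.3 and 17.9 in input, and those ranges overlapped. Against the BY4741 control the exons did not pass, at −0.53 ± 0.45 (adjusted p = 0.44) by edgeR.

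**Figure D2:**
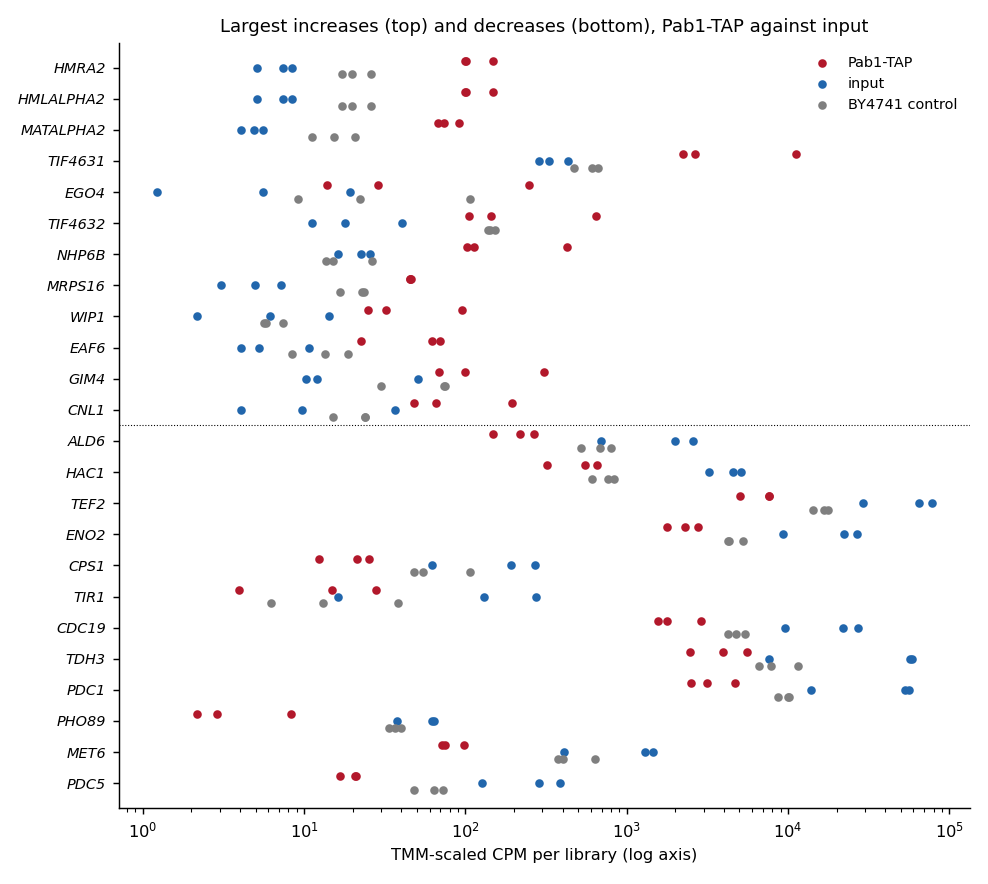
TMM-scaled CPM per library (log axis) of the 12 largest increases (top) and 12 largest decreases (bottom) among reading frames and exons in Pab1-TAP over input, with a point for each of 3 Pab1-TAP, 3 input and 3 BY4741 control libraries. TEF2 reaches 77848 CPM in input among the decreases, and TIF4631 reaches 11162 CPM in Pab1-TAP among the increases.

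Coding sequences are shown for the 4 largest increases and 4 largest decreases without overlap between Pab1-TAP and input, mating-type copies apart, because the 2 sets differ in their content of A, a property taken up again for all genes. Each line gives the first 30 coding bases from the ATG, with A in capitals (RefSeq, R64). For the increases:
TIF4631: AtgAcAgAcgAAActgctcAcccgAcAcAA
TIF4632: AtgActgAccAAAgAggtccAccgcccccA
NHP6B: AtggccgcAActAAAgAAgcAAAgcAAccA
MRPS16: AtgAcctgtggtctAgtAcgAAtAAggttA

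For the decreases, in the same layout:
PDC5: AtgtctgAAAtAAccttAggtAAAtAtttA
MET6: AtggttcAAtctgctgtcttAgggttcccA
PHO89: AtggctttAcAtcAAtttgActAtAttttt
PDC1: AtgtctgAAAttActttgggtAAAtAtttg

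The first 30 bases held 12, 9, 14 and 9 A in TIF4631, TIF4632, NHP6B and MRPS16, against 12, 5, 8 and 9 in PDC5, MET6, PHO89 and PDC1, so the 2 sets overlap there. Over the whole coding sequence A made up 36.1%, 37.7%, 36.3% and 34.2% of the 4 increased genes. It made up 27.6%, 29.4%, 25.9% and 26.4% of the 4 decreased ones, with no overlap.

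Genes of glycolysis and fermentation, the route from glucose to ethanol, fell almost throughout. Of 19 measured genes, 17 fell in Pab1-TAP relative to input and none was higher (edgeR), against a background of 12.7% lower. Their median log2 fold change was −2.84 (−1.18 with total-count scaling), and it lay 3.08 and 3.10 below that of all features under the TMM and total-count scalings. TDH3, the main glyceraldehyde-3-phosphate dehydrogenase, had 3967, 5605 and 2458 CPM in the Pab1-TAP libraries, against 58395, 57459.5 and 7608 CPM in input and 11566, 6589 and 7897 CPM in the BY4741 control (log2 fold change over input −3.36 ± 0.75, adjusted p = 0.0062 by edgeR). The enolase gene ENO2 was at −3.09 ± 0.59 (adjusted p = 0.0022), the pyruvate kinase gene CDC19 at −3.23 ± 0.56 (adjusted p = 0.0012) and the aldolase gene FBA1 at −2.96 ± 0.61 (adjusted p = 0.0038). As a share of all reads on reading frames and exons, the list took 4.90, 5.21 and 5.31% in Pab1-TAP, against 17.2, 17.3 and 9.76% in input and 8.31, 7.68 and 9.55% in the BY4741 control. That share does not depend on TMM, and its Pab1-TAP values were below all others. The list held 4 lower genes against the BY4741 control. Without replicate 1 of every group, 4 were lower.

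Translation elongation factors had 9 of 11 genes lower and none higher, with a median of −2.39 (−0.74 with total-count scaling, under which all 9 calls were lost and 1 gene was higher). TEF1 and TEF2 encode the same elongation factor eEF1A, and reads between the copies are uncertain. TEF2 had 5069, 7610.5 and 7615 CPM in the Pab1-TAP libraries, against 65202, 77848 and 29001 CPM in input and 14357, 16672 and 17744 CPM in the BY4741 control, with no overlap (log2 fold change over input −3.08 ± 0.64, adjusted p = 0.0039 by edgeR). YEF3, the fungal factor eEF3, was at −3.02 ± 0.53 (adjusted p = 0.0014) and EFT2, a copy of eEF2, at −2.94 ± 0.55 (adjusted p = 0.0021) by edgeR. Of 20 genes of the initiation factors eIF1 to eIF3 and eIF5, 8 were lower and none was higher, with a median of −0.73 that turned to 0.99 with total-count scaling. NIP1, a core subunit of eIF3, stood at −2.19 ± 0.31 (adjusted p = 0.00047) and PRT1, another, at −1.82 ± 0.34 (adjusted p = 0.002) by edgeR, whereas SUI1, which encodes eIF1, was at 0.03 ± 0.45 (adjusted p = 0.98). The initiation count was 4 without input replicate 2 and 5 without Pab1-TAP replicate 1 or Pab1-TAP replicate 3.

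Biosynthetic enzymes followed. Of 58 genes of amino acid synthesis, 40 were lower and none higher, with a median of −1.68 (−0.03 with total-count scaling). ILV3, a dehydratase of branched-chain amino acid synthesis, had 192, 288.3 and 215 CPM in the Pab1-TAP libraries, against 1608, 1814 and 1116 CPM in input and 715, 826 and 791 CPM in the BY4741 control, and its Pab1-TAP values were under all others (log2 fold change over input −2.71 ± 0.35, adjusted p = 0.00022 by edgeR). ILV5 and LEU1 of the same branch stood at −2.87 ± 0.55 (adjusted p = 0.0023) and −2.51 ± 0.37 (adjusted p = 0.0005), and the glutamine synthetase gene GLN1 at −0.72 ± 0.39 (adjusted p = 0.21), which did not pass by edgeR. Ergosterol synthesis had 11 of 22 genes lower and none higher, with a median of −1.21 that turned to 0.49 with total-count scaling. ERG13, HMG-CoA synthase, stood at −2.25 ± 0.50 (adjusted p = 0.0055) and ERG1, squalene epoxidase, at −2.19 ± 0.42 (adjusted p = 0.0022) by edgeR. The ergosterol count was 7 without input replicate 1 or input replicate 2 and 17 with the replicate number as a block.

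Heat shock proteins and chaperones had 10 of 20 genes lower and none higher, with a median of −1.38, which turned to 0.27 with total-count scaling. SSA1 and SSA2 encode near-identical Hsp70 proteins, and SSB1 and SSB2 the Hsp70 pair of the ribosome, so counts within each pair are uncertain. SSB1 had 1384, 1784 and 1014 CPM in the Pab1-TAP libraries, against 13207, 12335 and 4149 CPM in input and 3209, 3071 and 3069 CPM in the BY4741 control, without overlap (log2 fold change over input −2.83 ± 0.52, adjusted p = 0.0018 by edgeR). SSA2 stood at −2.84 ± 0.58 (adjusted p = 0.0034) by edgeR. Relative to all features, these 6 lists lay 0.96 to 3.08 lower with TMM, and 0.93 to 3.10 lower with total-count scaling. Of their calls, total-count scaling left 4 decreases in glycolysis and 2 in amino acid synthesis, with 1 to 7 members of each list called higher by edgeR. DESeq2 called none of their members higher, 1 gene of amino acid synthesis was higher without replicate 3 of every group, and 1 chaperone and 1 gene of amino acid synthesis were higher at an unadjusted p under 0.05. The control purification over input had medians of −1.82 (glycolysis), −1.62 (elongation), −0.21 (initiation), −0.85 (amino acid synthesis), −0.73 (ergosterol) and −0.37 (chaperones). Against the BY4741 control 4, 4, 6, 15, 3 and 4 genes were lower in that order by edgeR (background 14.8%), and 1 chaperone was higher.

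**Figure D3:**
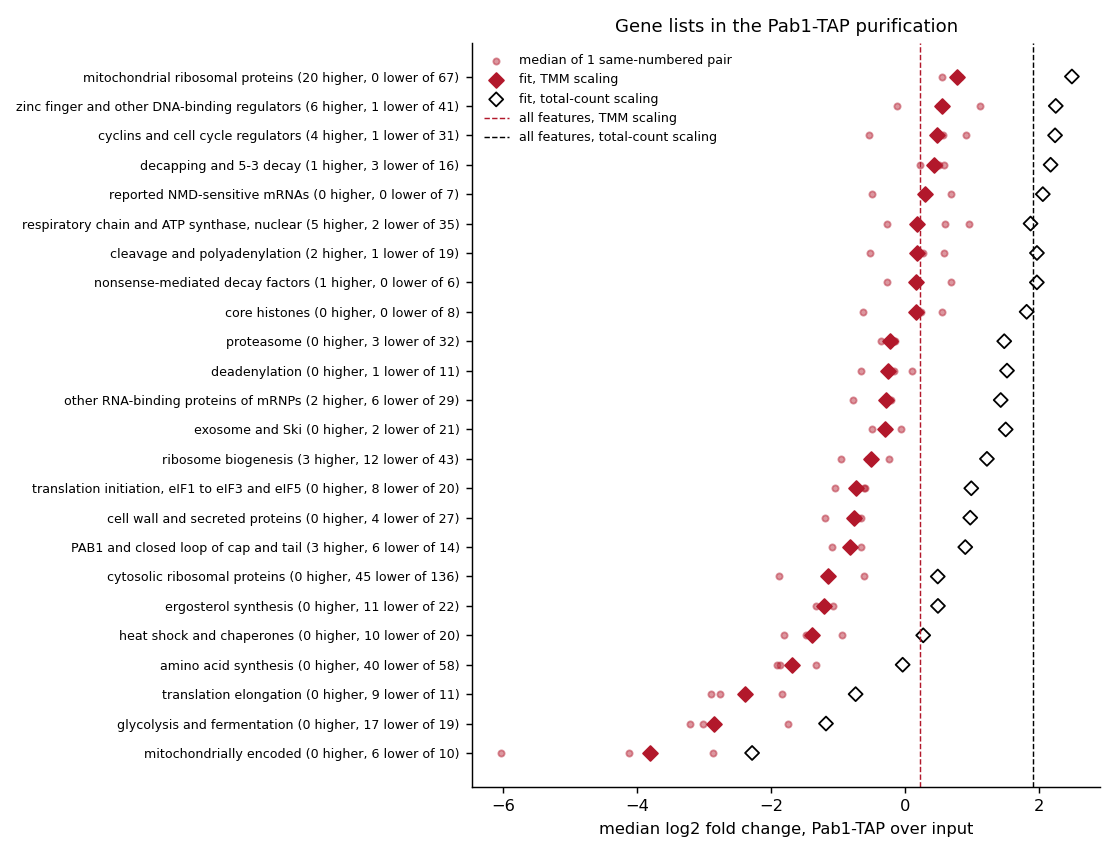
Median log2 fold change of Pab1-TAP over input for each gene list of more than 4 measured genes among those examined (filled diamonds, TMM scaling; open diamonds, total-count scaling; pale points, medians of the 3 pairs of libraries with 1 number), with dashed lines at the medians of all features, 0.23 and 1.92. The counts beside each name are genes higher and lower by edgeR, and the order of the lists from mitochondrially encoded at −3.80 to mitochondrial ribosomal proteins at 0.78 is that of the TMM medians.

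Ribosomal protein genes split by compartment. Of 136 genes of cytosolic ribosomal proteins, 45 fell below input in Pab1-TAP (background 12.7%) and none was higher, with a median of −1.15 that turned to 0.49 with total-count scaling. In the quartile of 1419 genes with the highest input level, 598 were lower and 8 higher, with a median of −1.02. That level also enters the fold change. Cytosolic ribosomal calls numbered 19 without input replicate 2, 21 without Pab1-TAP replicate 1, 22 without input replicate 1, 73 without replicate 3 of every group and 78 with the replicate number as a block. No member was higher by DESeq2, while leaving out replicate 3 of every group gave 1 higher member, as did an unadjusted p under 0.05. Total-count scaling left none of the 45 calls and gave 16 higher by edgeR. Relative to all features the median lay 1.38 lower with TMM and 1.43 lower with total-count scaling. RPL3, of the large subunit, had 2626, 3392 and 3207 CPM in the Pab1-TAP libraries, against 15646, 15722 and 7861 CPM in input and 3801, 3014 and 3622 CPM in the BY4741 control (log2 fold change over input −2.09 ± 0.46, adjusted p = 0.0057 by edgeR). RPL1B and RPS1B were at −1.72 ± 0.48 (adjusted p = 0.021) and −1.87 ± 0.54 (adjusted p = 0.022), and both lost their calls when Pab1-TAP replicate 1 or 2, or input replicate 1 or 2, was left out. RPS31, a ubiquitin fusion, was at −1.21 ± 0.64 (adjusted p = 0.19) and did not pass by edgeR, except under the replicate block (adjusted p = 0.017). Set against the BY4741 control, which shares the Pab1-TAP libraries with this comparison, the same list had 18 genes higher (background 6.48%), with a median of 0.94. The control purification itself stood at −2.05 over input in the median.

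Mitochondrial ribosomal proteins, which are encoded in the nucleus, had increases in place of decreases. Of 67 genes, 20 were higher than in input (background 8.99%) and none was lower, with a median of 0.78. Neither DESeq2 nor an unadjusted p under 0.05 gave a lower member. Mitochondrial ribosomal calls numbered 8 without input replicate 1, 10 without Pab1-TAP replicate 2 or input replicate 2, 13 without Pab1-TAP replicate 1 and 35 with the replicate number as a block. Besides MRPS16, the members named next were chosen after their values had been seen. RSM18 had 65.2, 71.5 and 62.7 CPM in the Pab1-TAP libraries, against 9.93, 18.6 and 25.4 CPM in input and 25.4, 24.7 and 34.9 CPM in the BY4741 control, with all Pab1-TAP values above the rest (log2 fold change over input 1.93 ± 0.38, adjusted p = 0.0031 by edgeR). MRPL50 had 79.1, 93.5 and 59.4 CPM in the Pab1-TAP libraries, against 29.5, 32.1 and 20.4 CPM in input and 24.2, 26.4 and 26.6 CPM in the BY4741 control, again separate (1.48 ± 0.32, adjusted p = 0.0052 by edgeR). MRPL33 stood at 1.73 ± 0.33 (adjusted p = 0.0022) and MRPL27 at 1.65 ± 0.31 (adjusted p = 0.0021) by edgeR. Abundant members did not pass, with MRP8 at 0.38 ± 0.53 (adjusted p = 0.67) and MRPS12 at −0.08 ± 0.34 (adjusted p = 0.9). Against the BY4741 control 16 of the 67 were higher (background 6.48%). Of the 1419 genes with the shortest coding sequences, 284 were higher than the BY4741 control and 219 higher than input. The list was not matched for coding length.

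Nuclear genes of the respiratory chain and ATP synthase showed no common direction. Of 35, 5 were higher and 2 lower (14.3% and 5.71%, beside 8.99% and 12.7% over reading frames and exons), with a median of 0.18. The 5 were QCR6 at 2.45 ± 0.46 (adjusted p = 0.002) and QCR7, QCR9, COX7 and ATP4 at 1.70, 1.36, 1.48 and 0.83, small subunits of complexes III to V, named after their values had been seen. ATP2, the catalytic β subunit of ATP synthase, was lower at −1.65 ± 0.50 (adjusted p = 0.032), and SDH1 of complex II at −1.34 ± 0.38 (adjusted p = 0.021) by edgeR, but they turned to 0.01 and 0.31 with total-count scaling. Respiratory chain increases numbered 1 without Pab1-TAP replicate 3 or input replicate 1 or input replicate 2, 2 without Pab1-TAP replicate 2 or input replicate 3 and 13 with the replicate number as a block. Respiratory chain decreases numbered 0 without Pab1-TAP replicate 1 or input replicate 1 or input replicate 2 and 1 without Pab1-TAP replicate 3.

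Factors of mRNA metabolism had calls in both directions. Among 29 RNA-binding proteins of mRNPs, 2 were higher and 6 lower (6.90% and 20.7%, beside 8.99% and 12.7% over reading frames and exons), with a median of −0.28. DED1, the DEAD-box helicase that unwinds 5′ leaders at initiation, was the most decreased with 88.2, 146 and 166 CPM in the Pab1-TAP libraries, against 1096, 1169 and 738 CPM in input and 638, 815 and 757 CPM in the BY4741 control, all below the other groups (log2 fold change over input −2.91 ± 0.36, adjusted p = 0.00016 by edgeR). SUB2, an mRNA export helicase, was at −1.49 ± 0.31, adjusted p = 0.0038 (0.25 with total-count scaling), and STM1, a ribosome preservation factor, at −1.88 ± 0.48 (adjusted p = 0.012) by edgeR. STM1 did not pass without input replicate 2. MTR2, a subunit of the mRNA export receptor, rose at 1.72 ± 0.29 (adjusted p = 0.001) by edgeR, and was picked out after its value had been seen. Increases of this list numbered 1 without Pab1-TAP replicate 1 or Pab1-TAP replicate 2 or input replicate 1 or input replicate 2. Its decreases numbered 3 without input replicate 2.

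Of 16 genes of decapping and 5′ to 3′ decay, 1 was higher and 3 were lower (6.25% and 18.8%), with a median of 0.43. XRN1, the 5′ exonuclease, had 157, 175 and 103 CPM in the Pab1-TAP libraries, against 282, 330.0 and 319 CPM in input and 625, 682 and 561 CPM in the BY4741 control (log2 fold change over input −1.0993 ± 0.30, adjusted p = 0.018 by edgeR), although its direction reversed to 0.66 with total-count scaling and it did not pass without Pab1-TAP replicate 3 or input replicate 2. LSM4, a subunit of the Lsm rings, was the one higher gene at 1.5996 ± 0.44 (adjusted p = 0.018), and DHH1 and EDC1, activators of decapping, were lower at −1.49 and −1.76 (DHH1 turned to 0.21 with total-count scaling), all 3 named after their values had been seen. LSM6 and LSM5 stood at 0.80 ± 0.44 (adjusted p = 0.22) and 0.51 ± 0.44 (adjusted p = 0.44) by edgeR and did not pass. Increases among decapping genes numbered 0 without Pab1-TAP replicate 2 or input replicate 1 or input replicate 2, 2 without Pab1-TAP replicate 1 or Pab1-TAP replicate 3 or input replicate 3, 5 without replicate 3 of every group and 5 with the replicate number as a block. Decreases among decapping genes numbered 0 without Pab1-TAP replicate 3 or input replicate 2 and 1 without Pab1-TAP replicate 1 or input replicate 1.

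Deadenylases had 1 of 11 genes lower, or 9.09% beside 12.7% over reading frames and exons (2 genes with the replicate number as a block). It was CCR4, the catalytic subunit of the main deadenylase, at −1.07 ± 0.35 (adjusted p = 0.04) by edgeR. None was higher by edgeR, DESeq2 or at an unadjusted p under 0.05 (median −0.25). CCR4 turned to 0.61 with total-count scaling and did not pass without Pab1-TAP replicate 1 or 3 or input replicate 1 or 2. Its partner POP2 stood at −0.57 ± 0.31 (adjusted p = 0.21). Of 19 cleavage and polyadenylation genes, YTH1 and REF2 were higher at 1.54 and 0.92 and CLP1 lower at −1.02 (0.72 with total-count scaling), named after their values had been seen (median 0.17). The shares were 10.5% higher and 5.26% lower, beside 8.99% and 12.7% over reading frames and exons. Increases in cleavage and polyadenylation numbered 0 without Pab1-TAP replicate 2 or input replicate 1 or input replicate 2 and 1 without Pab1-TAP replicate 1 or input replicate 3. Decreases in cleavage and polyadenylation numbered 0 without Pab1-TAP replicate 1 or Pab1-TAP replicate 3 or input replicate 1 or input replicate 2, 3 without replicate 3 of every group and 4 with the replicate number as a block. Among 6 factors of nonsense-mediated decay 1 was higher (16.7%, beside 8.99%), UPF3 at 1.90 ± 0.45 (adjusted p = 0.0083) by edgeR. The list had no call without input replicate 1, and 2 of the factors were higher without replicate 3 of every group. None was lower (median 0.17, DESeq2 also 1 and 0, with 1 lower under the block and at an unadjusted p under 0.05). Of 21 genes of the exosome and Ski complex, 2 were lower (9.52%, beside 12.7%), the nuclease gene DIS3 at −1.11 ± 0.30 (adjusted p = 0.018) and SKI8 at −1.55 ± 0.33 (adjusted p = 0.0042) by edgeR. None was higher (median −0.30, DESeq2 5 lower and 0 higher, and 2 higher at an unadjusted p under 0.05). DIS3 did not pass without Pab1-TAP replicate 3 or input replicate 2, turned to 0.68 with total-count scaling (SKI8 to 0.19), and the exosome list had 7 lower genes and 3 higher with the replicate number as a block. Without replicate 3 of every group 2 of the exosome list were higher.

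Ribosome biogenesis had 12 of 43 genes lower and 3 higher (27.9% and 6.98%, beside 12.7% and 8.99% over reading frames and exons), with a median of −0.51. Against the BY4741 control 18 were lower (background 14.8%). NSR1, a nucleolar protein of pre-rRNA processing, had 391, 433 and 278 CPM in the Pab1-TAP libraries, against 1604, 2123 and 1105 CPM in input and 366, 445 and 462 CPM in the BY4741 control (log2 fold change over input −2.13 ± 0.37, adjusted p = 0.0014 by edgeR), its Pab1-TAP values overlapping the control purification only. RRP5, a pre-rRNA assembly factor, was at −1.61 ± 0.33 (adjusted p = 0.0038) by edgeR and at 0.10 with total-count scaling. The 3 higher genes, named after their values had been seen, were RRP15 at 2.11 ± 0.46 (adjusted p = 0.0054), BUD21 at 1.84 ± 0.39 (adjusted p = 0.0044) and NHP2 at 1.47 ± 0.32 (adjusted p = 0.0052) by edgeR. Decreases in ribosome biogenesis numbered 6 without input replicate 2.

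For regulators of the cell cycle and of transcription the median depended on the pair of libraries and on the reference. Of 31 cyclins and cell cycle regulators, 4 were higher and 1 lower (12.9% and 3.23%, beside 8.99% and 12.7%), with a median of 0.49. The medians in the 3 pairs of 1 number were 0.91, 0.56 and −0.54. Over the BY4741 control the median was −0.37, with 2 genes lower by edgeR, and the control purification itself was at 0.97 over input. SIC1, an inhibitor of the cyclin-dependent kinase, had 153, 151 and 33.2 CPM in the Pab1-TAP libraries, against 19.5, 37.8 and 13.2 CPM in input and 61.9, 49.8 and 48.2 CPM in the BY4741 control, with Pab1-TAP replicate 3 inside the input range (log2 fold change over input 2.21 ± 0.55, adjusted p = 0.011 by edgeR). HSL1, a kinase of the morphogenesis checkpoint, was at 1.27 ± 0.40 (adjusted p = 0.037) and FAR1, which arrests the cycle in response to pheromone, at −1.08 ± 0.33 (adjusted p = 0.033) by edgeR. FKH2 and MBP1, transcription factors of the cycle, were at 2.59 and 1.69 and were named after their values had been seen. Cell cycle increases numbered 0 without input replicate 1, 2 without Pab1-TAP replicate 1 or input replicate 2, 7 without Pab1-TAP replicate 3, 14 without replicate 3 of every group and 7 with the replicate number as a block. Cell cycle decreases numbered 0 without Pab1-TAP replicate 2 or Pab1-TAP replicate 3 or input replicate 1 or input replicate 2 and 2 with the replicate number as a block. FAR1 lost its call without Pab1-TAP replicate 2 or 3 or any input replicate, and turned to 0.73 with total-count scaling.

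Of 41 zinc finger and other DNA-binding regulators, 6 were higher and 1, HAC1, was lower (14.6% and 2.44%, beside 8.99% and 12.7%), with a median of 0.56. The pairs gave medians of 1.12, 0.52 and −0.12. The median over the BY4741 control was −0.53, with 1 gene higher and 8 lower by edgeR, and the control purification itself was at 1.1619 over input. HAP4, the activator of respiratory genes, had 198, 173 and 71.5 CPM in the Pab1-TAP libraries, against 41.6, 26.0 and 24.4 CPM in input and 255, 79.3 and 148 CPM in the BY4741 control, above all input values but within the control purification (log2 fold change over input 2.26 ± 0.56, adjusted p = 0.011 by edgeR). HAP4 did not pass without input replicate 2. MET31, a zinc finger regulator of sulfur metabolism, had 41.5, 53.2 and 50.5 CPM in the Pab1-TAP libraries, against 7.14, 10.9 and 10.2 CPM in input and 21.8, 18.7 and 11.1 CPM in the BY4741 control, separate from both other groups (log2 fold change over input 2.36 ± 0.35, adjusted p = 0.00052 by edgeR), and MET32, RLM1, YAP1 and RTG3 stood at 2.49, 1.81, 1.53 and 1.24. These 5 were named after their values had been seen. GCN4, whose translation is regulated by short upstream reading frames, was at 0.06 ± 0.49 (adjusted p = 0.95) by edgeR and did not pass. Increases among DNA-binding regulators numbered 2 without Pab1-TAP replicate 1 or input replicate 1, 3 without input replicate 2, 10 without Pab1-TAP replicate 3, 13 without replicate 3 of every group and 15 with the replicate number as a block. Decreases among DNA-binding regulators numbered 2 without replicate 3 of every group or input replicate 3 and 2 with the replicate number as a block.

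Cell wall and secreted proteins had 4 of 27 genes lower, or 14.8% beside 12.7% over reading frames and exons. None was higher by edgeR, by DESeq2 or at an unadjusted p under 0.05. The median was −0.76, turning to 0.97 with total-count scaling. GAS1, a glucan-remodelling enzyme, was at −1.62 ± 0.40 (adjusted p = 0.01) by edgeR, but did not pass without input replicate 1 and turned to 0.07 with total-count scaling. Cell wall decreases numbered 1 without Pab1-TAP replicate 1 or input replicate 2, 2 without Pab1-TAP replicate 3 or input replicate 1, 10 without input replicate 3, 11 without replicate 3 of every group and 14 with the replicate number as a block. CCW12, an abundant mannoprotein, had 5461, 8839 and 1534 CPM in the Pab1-TAP libraries, against 28084, 30205 and 3911 CPM in input and 2664, 514 and 799 CPM in the BY4741 control and did not pass over input (−1.97 ± 0.93, adjusted p = 0.15 by edgeR, and 0.015 under the replicate block). The proteasome had 3 of 32 genes lower (9.38%, under that background of 12.7%), RPN1, RPN3 and RPT6, at −1.61, −1.08 and −0.90. None was higher by edgeR (1 by DESeq2, 1 without replicate 3 of every group and 2 at an unadjusted p under 0.05), and the median was −0.22. Proteasome decreases numbered 0 without Pab1-TAP replicate 1 or Pab1-TAP replicate 2 or input replicate 2, 1 without Pab1-TAP replicate 3 or input replicate 1 or input replicate 3 and 5 with the replicate number as a block. RPN1, RPN3 and RPT6 turned to 0.06, 0.66 and 0.85 with total-count scaling. Core histones, whose mRNAs are polyadenylated in yeast, had 0 of 8 called by edgeR or DESeq2 and none at an unadjusted p under 0.05 (median 0.16). HHT2, histone H3, had 432, 791 and 837 CPM in the Pab1-TAP libraries, against 678, 789 and 767 CPM in input and 305, 359 and 463 CPM in the BY4741 control, and Pab1-TAP and input overlapped. Its near-identical partner HHT1 was at −0.23 ± 0.51 (adjusted p = 0.8) by edgeR.

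The study followed single transcripts by read profiles, poly(A) tail assays or RT-qPCR, and of 4 measured here 1 was called lower (2 with the replicate number as a block, without Pab1-TAP replicate 3 or without replicate 3 of every group). PFK1, phosphofructokinase, had 245, 309 and 284 CPM in the Pab1-TAP libraries, against 1842, 1966 and 1146 CPM in input and 1099, 1292 and 1229.9 CPM in the BY4741 control over its reading frame (log2 fold change over input −2.56 ± 0.38, adjusted p = 0.0005 by edgeR) and its 5′ untranslated region stood at −3.18 ± 0.80 (adjusted p = 0.011). CCW22, annotated as a pseudogene in RefSeq, was at 0.96 ± 0.96 (adjusted p = 0.52) and RPL28 exons were at −1.43 ± 0.58, adjusted p = 0.096 by edgeR (adjusted p = 0.0079 under the replicate block). The RPL28 intron, retained in the pre-mRNA, had 183, 194 and 324 CPM in the Pab1-TAP libraries, against 242, 239 and 190.3 CPM in input and 87.9, 62.0 and 53.5 CPM in the BY4741 control. The intron did not pass over input (0.06 ± 0.38, adjusted p = 0.94 by edgeR) and was higher than the BY4741 control, by 1.78 ± 0.39 (adjusted p = 0.0056) by edgeR. Relative to the spliced RNA, intron reads per 100 exon reads of RPL28 were 16.5, 9.25 and 8.30 in Pab1-TAP, against 4.48, 3.90 and 2.50 in input and 7.90, 3.75 and 3.42 in the BY4741 control. Every Pab1-TAP ratio exceeded every ratio of the other groups. SUT141 is listed with 0 reads in every library. Of 7 mRNAs reported as sensitive to nonsense-mediated decay, 0 were called by edgeR (2 higher at an unadjusted p under 0.05, with the replicate block and without replicate 3 of every group, 1 by DESeq2), with a median of 0.30. CPA1, of arginine synthesis, was at 0.36 ± 0.70 (adjusted p = 0.77) and ALR1, a magnesium transporter, at −0.53 ± 0.48 (adjusted p = 0.47) by edgeR.

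RNAs without a long poly(A) tail were lower than in input in several classes. SCR1, the RNA of the signal recognition particle, took 0.164, 0.132 and 1.29% of the reads in Pab1-TAP, against 6.43, 8.29 and 10.2% in input and 2.26, 2.08 and 2.55% in the BY4741 control. All Pab1-TAP values lay below the others, with replicate 3 the highest of them (log2 fold change over input −5.52 ± 1.43, adjusted p = 0.014 by edgeR). SCR1 did not pass without Pab1-TAP replicate 2. NME1, the RNA of RNase MRP, was at −3.79 ± 1.22 (adjusted p = 0.038) by edgeR and lost its call when any of Pab1-TAP replicates 1 and 2 or the 3 input replicates was left out. Against the BY4741 control neither SCR1 nor NME1 passed by edgeR. Of 95 transfer RNA features 20 were lower and none was higher (median −3.60), with 57 lower at an unadjusted p under 0.05 and none higher there or by DESeq2. The control purification over input had a tRNA median of −3.28. Over the BY4741 control the Pab1-TAP median was −0.34, with 4 tRNA features higher and 0 lower by edgeR. Lower tRNA features numbered 4 without Pab1-TAP replicate 2, 5 without Pab1-TAP replicate 1, 7 without input replicate 2, 8 without input replicate 1, 65 without Pab1-TAP replicate 3, 85 without replicate 3 of every group and 76 with the replicate number as a block. The exon of tS(GCU)F held 0, 1 and 3 reads in Pab1-TAP, against 34, 89 and 11 in input (−6.64 ± 1.23, adjusted p = 0.002 by edgeR). tI(UAU)L followed at −5.94 ± 1.18 (adjusted p = 0.0029) by edgeR. RUF5-1 and RUF5-2, identical non-coding RNAs of the CUP1 repeats whose reads cannot be assigned to one copy, rose together at 2.37 ± 0.50 (adjusted p = 0.0045) by edgeR.

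Small nuclear and nucleolar RNAs had 6 of 38 features lower by edgeR (15.8%, beside 7.89% over all features). None was higher by edgeR, DESeq2 or at an unadjusted p under 0.05 (median −0.65, turning to 0.88 with total-count scaling). Lower small RNA features numbered 2 without Pab1-TAP replicate 1 or Pab1-TAP replicate 2 or input replicate 1, 3 without input replicate 3, 11 without replicate 3 of every group or Pab1-TAP replicate 3 and 15 with the replicate number as a block. Their share of reads was 0.316, 2.42 and 7.99% in Pab1-TAP, against 4.15, 3.35 and 7.92% in input, and Pab1-TAP replicate 3 exceeded every input library. Over the BY4741 control 7 of these features were lower and 0 higher by edgeR (median −2.13). The control purification over input was at 0.57 in the median. Features of the ribosomal DNA gave 0 calls of 17 by edgeR and DESeq2, with 2 lower at an unadjusted p under 0.05 (median −2.38). That median turned to 3.45 without input replicate 3 and was −7.91 without Pab1-TAP replicate 3. Without replicate 3 of every group 12 of them were lower. Ribosomal RNA was removed by either of 2 reagents before sequencing, so its level does not measure its copurification.

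Transcripts of the mitochondrial genome, which are not polyadenylated in yeast, were lower in 6 of 10 listed genes and higher in none by edgeR, DESeq2 or at an unadjusted p under 0.05 (median −3.80). COX3, a subunit of cytochrome oxidase, had 4.36, 7.54 and 27.8 CPM in the Pab1-TAP libraries, against 624, 323 and 583 CPM in input and 98.7, 199.6 and 198 CPM in the BY4741 control. The highest Pab1-TAP value was below the lowest of the other groups (log2 fold change over input −5.29 ± 0.73, adjusted p = 0.00037 by edgeR). OLI1, a subunit of ATP synthase, was at −3.54 ± 0.79 (adjusted p = 0.0062) by edgeR. COX2, ATP6, COB and COX1 stood at −3.84, −4.57, −3.76 and −2.20, and were named after their values had been seen. The same 6 genes were lower than in the BY4741 control, whose own median over input was −0.43. The ribosomal RNAs of mitochondria varied by orders of magnitude between replicates. 21S_RRNA had 1.83, 4.40 and 2749.6 CPM in the Pab1-TAP libraries, against 66.4, 93.6 and 68607 CPM in input and 55.1, 21123 and 24352 CPM in the BY4741 control and did not pass (−4.64 ± 3.19, adjusted p = 0.33 by edgeR, and 0.0063 under the replicate block). The replicate block raised the number of lower genes of the list to 9.

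**Figure D4:**
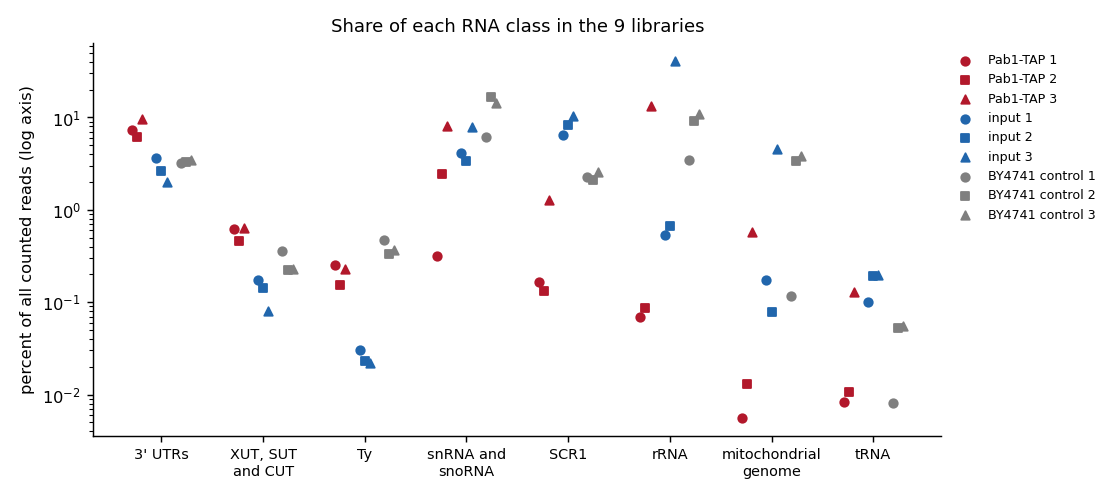
Percent of all counted reads (log axis) taken by each RNA class in the 3 Pab1-TAP, 3 input and 3 BY4741 control libraries, with a marker shape for each replicate number. For 3′ untranslated regions, the 3 non-coding classes together and Ty elements every Pab1-TAP point lies above every input point, and for SCR1 every one lies below. With total-count scaling the median log2 fold changes over input of those first classes were 2.36, 1.93 and 3.18, beside 1.92 over all features.

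RNA of 3′ untranslated regions rose more often than it fell. Of 3934 such regions, 540 were higher and 84 lower (13.7% and 2.14%, against 9.89% and 7.89% over all features), with a median of 0.73 beside 0.02 over reading frames. Their reads per 100 reads on reading frames were 9.82, 9.10 and 20.0 in Pab1-TAP, against 5.42, 3.93 and 8.06 in input and 4.37, 5.95 and 6.14 in the BY4741 control. Every Pab1-TAP value exceeded every other, and both replicates 3 were the highest of their groups. Within 3889 genes measured in both regions, the log2 fold change of the 3′ region exceeded that of the frame by a median of 0.76, and was the larger one in 85.8% of them. The medians in the 3 pairs of 1 number were 0.31, 0.60 and 0.92. For 5′ regions of 1367 genes the corresponding median was −0.18. Of 1473 such regions 70 were higher and 84 lower (4.75% and 5.70%, under the 9.89% and 7.89% over all features). Higher 5′ regions numbered 19 without input replicate 2, 25 without input replicate 1, 46 without Pab1-TAP replicate 3 and 121 with the replicate number as a block. Lower 5′ regions numbered 44 without input replicate 1, 47 without input replicate 2, 48 without Pab1-TAP replicate 2, 51 without Pab1-TAP replicate 1, 164 without replicate 3 of every group and 163 with the replicate number as a block. Higher 3′ regions numbered 196 without input replicate 2, 235 without input replicate 1 and 893 with the replicate number as a block. Lower 3′ regions numbered 27 without input replicate 1, 36 without Pab1-TAP replicate 1 or Pab1-TAP replicate 2, 51 without input replicate 2, 292 without replicate 3 of every group and 190 with the replicate number as a block. With total-count scaling 2879 of the 3′ regions were higher and 2 lower.

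Among single 3′ regions, CUZ1, a zinc finger protein that protects against arsenite, had 18.5, 11.8 and 33.2 CPM in the Pab1-TAP libraries, against 0.621, 1.69 and 2.04 CPM in input and 6.81, 6.39 and 11.9 CPM in the BY4741 control, above all input values (log2 fold change over input 3.93 ± 0.58, adjusted p = 0.0005 by edgeR). The bromodomain protein gene BDF2 had a 3′ region at 3.67 ± 0.93 (adjusted p = 0.012) by edgeR, with no call without Pab1-TAP replicate 3 or input replicate 1 or 2. The 3′ regions of MET6 and SSB2 fell with their reading frames, at −2.87 ± 0.57 (adjusted p = 0.0028) and −2.65 ± 0.50 (adjusted p = 0.0021) by edgeR. Of 5′ regions, GPC1 (glycerophosphocholine acyltransferase) rose at 2.88 ± 0.59 (adjusted p = 0.0034), and FKS1, a glucan synthase subunit, fell at −3.38 ± 0.37 (adjusted p = 5.5e-05) by edgeR. FKS1 had 4.49, 4.71 and 4.31 CPM in the Pab1-TAP libraries, against 57.1, 43.0 and 40.7 CPM in input and 21.02, 33.3 and 30.1 CPM in the BY4741 control there, all Pab1-TAP values below the rest.

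Non-coding transcripts comprised Xrn1-sensitive unstable transcripts (XUT), stable unannotated transcripts (SUT) and cryptic unstable transcripts (CUT), RNA polymerase II products of which many are substrates of cytoplasmic decay. Together 87 of 963 were higher in Pab1-TAP than in input (background 9.89%) and 25 lower (background 7.89%). The medians were 0.24 for 522 XUT, 0.57 for 167 SUT and 0.26 for 274 CUT, beside 0.23 over all features. Without replicate 3 of every group they were 0.07, 0.26 and −0.11, beside 0.15 over all features, and the CUT median was 0.02 without Pab1-TAP replicate 3. The pairs gave CUT medians of −0.71, 0.17 and 0.67. The joint share of reads of the 3 classes was 0.628, 0.461 and 0.629% in Pab1-TAP, against 0.174, 0.141 and 0.0798% in input and 0.358, 0.222 and 0.226% in the BY4741 control. No Pab1-TAP value overlapped another group. Shares of reads follow total-count scaling, under which the joint median over input was 1.93, beside 1.92 over all features. Higher non-coding transcripts numbered 25 without input replicate 2, 26 without input replicate 1, 48 without Pab1-TAP replicate 3 and 146 with the replicate number as a block. Lower non-coding transcripts numbered 6 without input replicate 2, 7 without input replicate 1, 8 without Pab1-TAP replicate 1, 11 without Pab1-TAP replicate 2, 76 without replicate 3 of every group and 51 with the replicate number as a block. CUT_GIM_1019 had 2.15, 1.30 and 26.4 CPM in the Pab1-TAP libraries, against 0.621, 0.461 and 1.02 CPM in input and 1.20, 0.518 and 1.28 CPM in the BY4741 control, with replicate 3 far above the other Pab1-TAP libraries (log2 fold change over input 4.01 ± 1.02, adjusted p = 0.013 by edgeR), and it lost its call without Pab1-TAP replicate 3, input replicate 1 or input replicate 2. SUT381 had 5.69, 8.75 and 15.3 CPM in the Pab1-TAP libraries, against 0.621, 1.38 and 2.04 CPM in input and 0.801, 1.90 and 1.28 CPM in the BY4741 control (log2 fold change over input 2.9984 ± 0.62, adjusted p = 0.0036 by edgeR), and XUT_7F-347 stood at 3.31 ± 0.69 (adjusted p = 0.004) by edgeR. XUT_7F-333 was lower, at −2.57 ± 0.56 (adjusted p = 0.0052) by edgeR, with no call without input replicate 2. All 812 XUT of the reverse strand were at 0 reads in all 18 libraries, as were 131 of 133 introns of Crick-strand genes, so those parts of the annotation were not measured. At 0 in all 18 were also 574 of 847 SUT and 1523 of 2240 CUT. The sources used here do not say whether strand entered the counting, and antisense pairs may share reads.

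The same non-coding transcripts were also set against the BY4741 control. There 1037 of 12582 features were higher (8.24%) and 1016 lower (8.08%) in Pab1-TAP, of which 384 (6.48%) and 877 (14.8%) of the 5928 reading frames and exons. Of the 963 non-coding transcripts, 210 were higher and 6 lower, with a median of 1.23. The control purification over input had a median of −0.85 for these transcripts. Both comparisons share the Pab1-TAP libraries, and each is given for itself. The counts over all features were 129 and 306 without replicate 1 of every group, and edgeR left 0 and 0 when replicate 2 was omitted (1850 had an unadjusted p under 0.05). They were 367 and 567 without BY4741 control purification replicate 2, 637 and 790 without its replicate 1 and 536 and 743 without its replicate 3, and 607 and 660 without Pab1-TAP replicate 3 and 701 and 630 without Pab1-TAP replicate 2. The replicate block gave 2001 higher and 1881 lower, and DESeq2 on all libraries 1490 and 1193.

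Introns gave 6 higher and 13 lower of 86 (6.98% and 15.1%, beside 9.89% and 7.89% over all features). In ribosomal protein genes 3 of 52 introns were higher and 4 lower (5.77% and 7.69%), with a median of −0.07. The exon features of yeast genes had a median of −0.34. Summed over 51 ribosomal protein genes, intron reads per 100 exon reads were 3.69, 1.71 and 1.93 in Pab1-TAP, against 0.936, 0.954 and 1.42 in input and 2.53, 2.31 and 2.22 in the BY4741 control. Every Pab1-TAP ratio exceeded every input ratio, and they overlapped those of the control. The RPL26B intron had 96.4, 86.1 and 132 CPM in the Pab1-TAP libraries, against 4.65, 9.07 and 35.6 CPM in input and 19.8, 22.5 and 25.4 CPM in the BY4741 control, with no overlap (log2 fold change over input 2.83 ± 0.54, adjusted p = 0.0023 by edgeR). RPL36A and RPL31A followed at 2.39 ± 0.47 (adjusted p = 0.0029) and 1.6017 ± 0.42 (adjusted p = 0.015) by edgeR, RPL31A with no call without input replicate 1 or input replicate 2. The ECM33 intron, in a gene of a cell wall protein, fell most, with 4.87, 7.14 and 11.1 CPM in the Pab1-TAP libraries, against 73.5, 95.9 and 169 CPM in input and 23.6, 26.1 and 24.3 CPM in the BY4741 control (log2 fold change over input −3.88 ± 0.46, adjusted p = 9.6e-05 by edgeR), and the GLC7 intron, in the gene of a protein phosphatase, stood at −2.50 ± 0.45 (adjusted p = 0.0017) by edgeR. Higher introns numbered 3 without input replicate 2, 11 without replicate 3 of every group and 11 with the replicate number as a block. Lower introns numbered 8 without Pab1-TAP replicate 2, 24 without replicate 3 of every group and 20 with the replicate number as a block.

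Of 29 Ty retrotransposon features 6 were higher, and none was lower by edgeR or DESeq2, with none lower at an unadjusted p under 0.05 and a median of 1.5990. They took 0.252, 0.155 and 0.231% of the reads in Pab1-TAP, against 0.0303, 0.0231 and 0.0218% in input and 0.474, 0.329 and 0.370% in the BY4741 control, so the share in Pab1-TAP was above input and below the control in all libraries. By single features the order against the control differed, with a median of 0.51 over the BY4741 control, 7 higher and 4 lower by edgeR. Copies of Ty elements are near-identical, and how reads were divided between them is uncertain. Higher Ty features numbered 1 without input replicate 2, 2 without Pab1-TAP replicate 3 or input replicate 1, 11 without Pab1-TAP replicate 2 and 22 with the replicate number as a block.

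Reading frames were last compared by properties of their sequence, over 5676 genes with a coding sequence in RefSeq R64, as a description without a test. The fold change fell with abundance. In quartiles of the level in the BY4741 control, libraries that do not enter the fold change over input, the medians were 0.43, 0.29, −0.05 and −0.82 with increasing level (Spearman rho −0.43 across genes). The highest of these quartiles held 503 lower and 35 higher genes of 1419. The gene lists above were not matched for abundance. The medians rose with the share of A in the coding sequence, and were −0.60, −0.28, 0.10 and 0.76 over its quartiles (rho 0.51). The lowest quartile held 341 lower and 16 higher genes and the highest 20 lower and 354 higher, of 1419 each. The control purification over input showed the same order of medians, −0.71, −0.15, 0.40 and 1.01, and in Pab1-TAP over the BY4741 control they were 0.06, −0.10, −0.35 and −0.27. The 2 comparisons over input share the input libraries.

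Medians over quartiles of coding length are given against both references. Over input the medians were 0.36, 0.03, −0.19 and −0.15 in quartiles of increasing length (rho −0.21). Over the BY4741 control they were 0.86, 0.10, −0.43 and −1.07 (rho −0.77), with 284 higher and 14 lower genes in the shortest quartile and 8 higher and 703 lower in the longest. The control purification over input ran from −0.51 in the shortest to 0.88 in the longest quartile (rho 0.46). Genes with a run of at least 12 A within the coding sequence numbered 19, with a median of 0.79 against 0.00 for the others, and 2 of them were higher and 1 lower. A run of at least 12 A in the 300 bases around the start codon, present in 245 genes, went with a median of −0.04, against 0.01. Genes are not independent replicates, and abundance, length and base composition are related to each other.

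**Figure D5:**
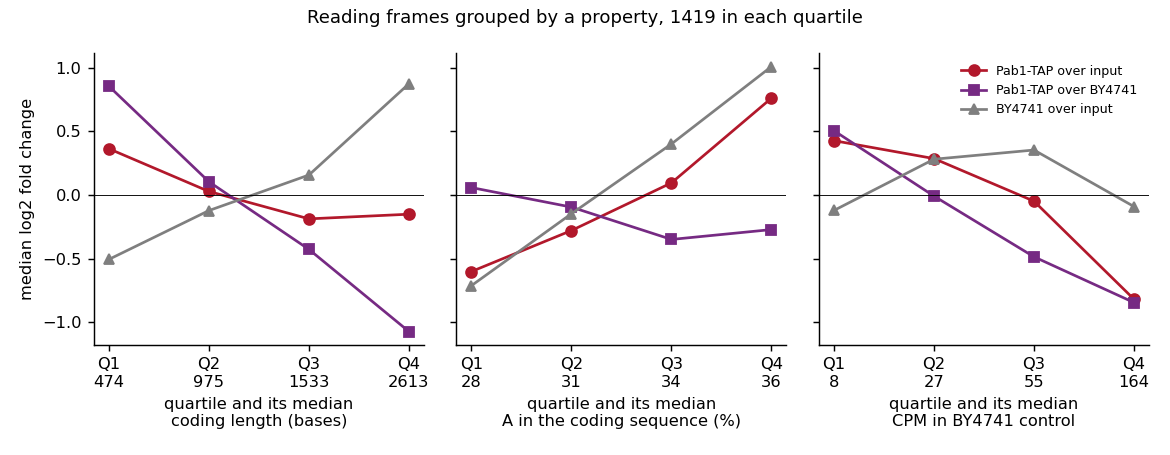
Median log2 fold change of 1419 genes per quartile (Q1 lowest) of coding length, share of A in the coding sequence and level in the BY4741 control, for Pab1-TAP over input, Pab1-TAP over the BY4741 control and the BY4741 control over input; numbers under each quartile are its median property. Over the BY4741 control the line falls from 0.86 to −1.07 with length. Over input the medians rise with the share of A both in Pab1-TAP, from −0.60 to 0.76, and in the control purification, from −0.71 to 1.01. Pab1-TAP over the BY4741 control is at 0.06 in the lowest and −0.27 in the highest quartile of A. In the panel of BY4741 level, that level also enters both fold changes that involve the control.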

How the data were processed

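Libraries came from RNA extracted with hot acid phenol, depleted of ribosomal RNA with either of 2 reagents (the assignment to libraries was not given in the sources used here) and prepared with a stranded kit. The authors trimmed reads with cutadapt 1.16, aligned them with STAR 2.7 to the R64-1-1 genome and assigned them to features with featureCounts (Subread 1.6.2) over an annotation extended with non-coding RNAs. The deposited values are raw read counts per feature, not normalised, in 1 column for each sample.

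Of 23521 features, 12582 with at least 10 reads in at least 3 of 18 libraries were kept (5004 were at 0 in all). Counts were fitted with edgeR 4.0.16 in R 4.3.3 (quasi-likelihood test, TMM scaling, 6 groups, 12 residual degrees of freedom). P-values were adjusted by Benjamini-Hochberg over all 12582 features, with a threshold of 0.05. They measure the spread between the libraries of a group, described as replicated experiments without a date or culture for each. DESeq2 1.42.0, other scalings and filters, a fit of 6 libraries, a replicate block and fits without single libraries were run as alternatives. Replicate numbers were taken to pair libraries, since deviations from the group means correlated within each number (Pearson 0.340, 0.433 and 0.499 over features), and each Pab1-TAP library correlated best with the input of its own number. The main fit held no replicate block, because the study averaged the 3 replicates of each condition, and so did not use this pairing. Gene lists and members were chosen with earlier results of these data known. Features were named by rule. These were the genes of the baits, the 12 largest changes in each direction among reading frames and exons with at least 20 CPM and 1 sign in all 3 pairs, the 4 largest of each other class (at least 5 CPM), up to 4 most abundant members of each list and 5 transcripts the study names. A feature outside the rule is said to be chosen after its values were seen. CPM are TMM-scaled. Sequences and coding lengths came from RefSeq R64, in which 6007 of 6682 systematic names were found. Libraries of the other 3 purifications entered the fit only.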

Additional observations from a re-analysis of the deposited data

How the results depend on the processing

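Over input, total-count scaling gave 7854 features higher and 48 lower, a minimum of 10 reads in each of 6 libraries 779 and 606, a fit of only 6 libraries 376 and 376, and the replicate block 2260 and 1804. Against the BY4741 control purification the total-count scaling gave 74 lower, the fit of 6 libraries 427 higher and 556 lower, and the replicate block 2001 and 1881. Leaving out 1 replicate of every group or 1 library gave 0 to 1759 higher and 0 to 1755 lower over input, and 0 to 1145 and 0 to 1332 against the control purification. Where a value shows no other cause, the cause was not tested; the fits without a library or of 6 libraries hold fewer samples.

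Of the features named by rule that passed the test in the main fit or the alternative, 24 changed direction. All did so under total-count scaling, by which the median of all features moves by 1.69. Their log2 fold changes over input became 0.46 for SUT255, 0.25 for SUB2, 1.43 for GIS2, 1.59 for GLC7 exons, 1.14 for POP2, 0.61 for CCR4, 0.66 for XRN1, 1.67 for EBS1, 0.68 for DIS3, 1.38 for HHT1, 1.53 for HHT2, 1.44 for HTA1, 0.097 for RRP5, 0.41 for NOP56, 0.075 for GAS1, 0.064 for RPN1, 1.45 for PRE9, 0.85 for RPT6, 1.19 for RPN2, 0.0056 for ATP2, 0.73 for FAR1, 1.65 for ASH1, 1.56 for MRPS12 and 1.597 for RSM7. Features that passed in neither fit turned under that scaling as well, among them the NAM7 frame (−0.92 to 0.83) and PAT1 (−1.07 to 0.64). No named feature that passed the test in either fit changed direction under another alternative, and the replicate block cost no named feature its call. DESeq2 cost none of them its call either, and the fit of 6 libraries cost 34. Depth limited features of few reads, and input replicate 3 was the shallowest library at 2790148 reads.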

Other observations

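Several features were high mainly in Pab1-TAP replicate 3. The 5′ untranslated region of TMA10, a ribosome-associated protein, had 1.71, 1.57 and 26.6 CPM in the Pab1-TAP libraries, against 0.310, 0 and 1.02 CPM in input (log2 fold change 5.45 ± 1.47, edgeR adjusted p = 0.017). That of STR3, cystathionine beta-lyase, had 3.10, 2.56 and 56.2 CPM, against 2.17, 0.461 and 0 CPM in input (4.34 ± 1.13, edgeR adjusted p = 0.014). The 3′ untranslated region of COX26, a protein bound to respiratory supercomplexes, had 3.35, 1.57 and 33.9 CPM, against 0.310, 0.615 and 2.04 CPM in input, so the groups overlapped (4.15 ± 1.36, edgeR adjusted p = 0.042). None of the 3 passed without Pab1-TAP replicate 3 or without input replicate 2.

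Among 5′ untranslated regions, AIP5 fell most of those named by rule, with 0.443, 0.314 and 2.51 CPM in the Pab1-TAP libraries, against 15.2, 17.99 and 16.3 CPM in input (−4.17 ± 1.07, edgeR adjusted p = 0.013), and did not pass without Pab1-TAP replicate 1 or 2. The region of ALA1, alanyl-tRNA synthetase, had 0.316, 0.359 and 1.44 CPM, against 3.72, 9.07 and 16.3 CPM in input (−3.93 ± 0.90, edgeR adjusted p = 0.0072).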
